A study of Mus musculus with 6 samples.

Results

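The 10 genes described here mark the identity of Schwann cells, of the neural crest and of melanocytes: SOX10, SOX9, TFAP2A, MITF, NGFR, MC1R, NES, PMP22, GAP43 and PMEL. They were taken by exact symbol, and all 10 were found among the 23284 genes of the deposited expression table. The samples were 6 subcutaneous tumours in nude mice, hosts without a thymus and thus with few T cells, and all came from STS26T, 1 human cell line that the labels give as a malignant peripheral nerve sheath tumour (MPNST) line. In 3 tumours the hosts had received a pair of antibodies against endoglin (ENG, a co-receptor of the TGF-beta family), TRC105 against the human protein and M1043 against the mouse protein, and in 3 they had received the matching IgG. Either arm was dosed into the peritoneum at 10 mg/kg, 2 times a week, for 3 weeks. The tumour codes share a number in IgG control 2 and 3 and in anti-ENG 1 and 2, with the endings L and R, and whether they shared a mouse is not labelled, so p-values measure the spread between tumours that may not be independent.

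The neural crest is an embryonic cell population that leaves the dorsal neural tube and gives rise, among others, to Schwann cells, which ensheathe peripheral nerves, and to melanocytes, the pigment cells. SOX10 is the transcription factor that both descendants retain. In melanocytes it acts on MITF, which in turn acts on pigment genes such as PMEL, TYR and MLANA, and in Schwann cells it acts with EGR2 on myelin genes. Stains for SOX10 and S100B proteins are used in the diagnosis of nerve sheath and melanocytic tumours.

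In these tumours the levels of the lineage genes ran from above 15 FPKM to near 0. NES, PMP22 and SOX9 were above 15 FPKM (fragments per kilobase of transcript, scaled for the number of mapped fragments) in every tumour. TFAP2A, MITF, MC1R and GAP43 had means between 1.57 and 4.29 FPKM. NGFR averaged 0.952 FPKM over the 6 tumours and reached 2.34 FPKM in anti-ENG 2. PMEL averaged 0.137 FPKM and SOX10 0.0780 FPKM, and both were near 0 in every tumour. Between treatments, NES and MC1R had lower values in all 3 anti-ENG tumours than in any IgG tumour, and none of the genes passed the adjusted threshold. Of the 12586 genes tested, 6.75% were lower in this way, and in 17.3% the groups did not overlap in either direction.

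**Figure D1:**
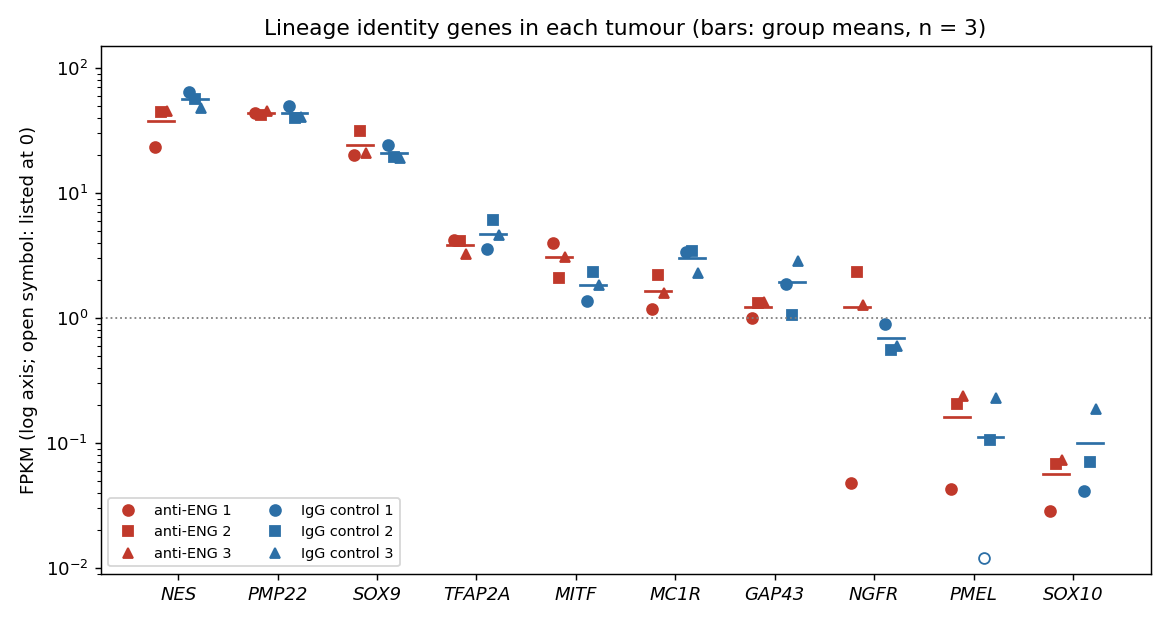
FPKM (log axis) of the 10 lineage genes in each tumour, ordered by mean level, with anti-ENG tumours in red and IgG control tumours in blue; horizontal bars are group means (n = 3), the dotted line is 1 FPKM and the open symbol is a value listed at 0. NES, PMP22 and SOX9 lie above 15 FPKM in every tumour, and PMEL and SOX10 lie below 0.5 FPKM in every tumour.

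FPKM divides by transcript length, so levels of different genes can be set side by side. The order by mean level was NES, PMP22, SOX9, TFAP2A, MITF, MC1R, GAP43, NGFR, PMEL and SOX10. The ranges over the 6 tumours lay apart between PMP22 and SOX9 and between SOX9 and TFAP2A. All other neighbours in the order overlapped. MITF and MC1R exchanged places: MITF was the higher of the pair in 2 of 3 anti-ENG tumours and in 0 of 3 IgG tumours. Among all listed genes, by mean FPKM, NES stood at percentile 92.8, PMP22 at 92.1 and SOX9 at 84.0, while MITF stood at 52.4, PMEL at 33.7 and SOX10 at 30.3.

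Over all genes tested, anti-ENG 1 and IgG control 1 were the least alike pair of tumours, with a correlation of 0.932 in log2(FPKM + 1), where pairs within a group had at least 0.959. They formed the 2 ends of the leading principal component, which held 44.6% of the variance, so results are also given without them where this moves a value by over 1.5 times. Each column added up to 410786 to 475146 FPKM, and the total depth is unknown. The step between the lowest FPKM values gave depths of 1.46, 1.24 and 1.14 for anti-ENG 1, 2 and 3 and of 1.18 and 1.09 for IgG control 2 and 3, relative to IgG control 1. The table uses human gene symbols, so RNA of the mouse host can add to a value only through reads similar enough to map to human sequence.

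Groups were compared with limma on log2(FPKM + 1) in 12586 genes, those averaging 1 FPKM or more over the 6 tumours, and p-values were adjusted by Benjamini-Hochberg over all of them. This took in 7 of the 10 lineage genes. NGFR, PMEL and SOX10 were under the minimum and are given with an exact permutation test over the 6 tumours, which cannot give a two-sided p under 0.1 here. By limma 0 of the 7 passed an adjusted p of 0.05, as did 0 of all genes tested (0%). At an unadjusted p under 0.05 there were 2 of the 7, MC1R and NES, against 9.17% of all genes tested. Fold changes are anti-ENG over IgG control on the log2(FPKM + 1) scale, so the change of a low gene is understated.

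Of the transcription factors, SOX10 was near 0 in every tumour. It had 0.0283, 0.0673 and 0.0724 FPKM in anti-ENG 1, 2 and 3, against 0.0413, 0.0702 and 0.188 FPKM in IgG control 1, 2 and 3. With the relative depths above, these values were whole multiples of 1 step within 3%, namely 1, 2 and 2 steps in the anti-ENG tumours and 1, 2 and 5 in the IgG tumours. A step is the value of 1 fragment if the smallest value stands for 1 fragment. The groups overlapped, with an exact two-sided permutation p of 0.5, and at this depth a difference in SOX10 could not be measured.

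SOX9 belongs to the same subgroup of SOX factors and is known for its part in neural crest stem cells and in cartilage. It had 20.0, 31.0 and 20.999 FPKM in the anti-ENG tumours, against 24.02, 19.5 and 19.1 FPKM in the IgG tumours. The groups overlapped, with anti-ENG 2 the highest of all 6. For SOX9 the log2 fold change was 0.17 (SE 0.19, limma adjusted p = 0.736), and it was -0.019 without anti-ENG 2 and 0.39 without anti-ENG 1 and IgG control 1. The mean SOX9 level was 288 times that of SOX10, and the ratio ran from 290 to 706 in the anti-ENG tumours and from 102 to 581 in the IgG tumours. The divisor was 1 to 5 steps of SOX10 per tumour, so these ratios are rough and the arms cannot be compared by them. SOX8, the remaining member of the subgroup, was listed at 0 in all 6 tumours.

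TFAP2A encodes AP-2 alpha, a factor of neural crest induction and of melanocyte gene control. It had 4.22, 4.09 and 3.25 FPKM in the anti-ENG tumours, against 3.54, 6.04 and 4.62 FPKM in the IgG tumours. The groups overlapped, and the 2 highest values were those of IgG control 2 and 3. For TFAP2A the log2 fold change was -0.22 (SE 0.19, limma adjusted p = 0.670), and it was -0.063 without IgG control 2. Leaving out anti-ENG 1 and IgG control 1 gave -0.44. Its paralogue TFAP2C, on average 4.19 times as high as TFAP2A, had 5.01, 22.7 and 16.8 FPKM in the anti-ENG tumours, against 26.1, 17.8 and 19.5 FPKM in the IgG tumours. TFAP2C was lowest in anti-ENG 1, and the paralogue TFAP2B was listed at 0 in all 6 tumours.

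MITF, the central transcription factor of melanocytes, was present at a few FPKM. It had 3.98, 2.09 and 3.07 FPKM in the anti-ENG tumours, against 1.38, 2.34 and 1.83 FPKM in the IgG tumours. Anti-ENG 1 and 3 lay above all IgG tumours and anti-ENG 2 lay below IgG control 2, so the groups overlapped. The mean was 3.05 ± 0.943 FPKM under anti-ENG and 1.85 ± 0.483 FPKM under IgG (SD, n = 3 each). The log2 fold change was 0.49 (95% interval -0.028 to 1.02, limma adjusted p = 0.529), and leaving out both anti-ENG 1 and IgG control 1 gave 0.21. MITF has several promoters, of which 1 is used in melanocytes, and the table gives 1 value per gene, so the melanocyte transcript cannot be told apart from the others. Its relative TFE3, a factor found in most tissues, averaged 39.9 FPKM, 16.3 times the mean of MITF.

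Of the receptors, MC1R was lower in all 3 anti-ENG tumours than in any IgG tumour. It encodes the melanocortin receptor through which melanocytes are driven towards dark pigment. It had 1.18, 2.21 and 1.57 FPKM in the anti-ENG tumours, against 3.40, 3.44 and 2.30 FPKM in the IgG tumours. All 3 anti-ENG values lay below all 3 IgG values, a pattern found in 6.75% of all genes tested, although anti-ENG 2 and IgG control 3 were close. The means were 1.65 ± 0.520 FPKM under anti-ENG and 3.04 ± 0.648 FPKM under IgG (SD, n = 3 each). The log2 fold change was -0.61 (SE 0.21, limma adjusted p = 0.529), with a 95% interval of -1.10 to -0.13. By exact permutation the two-sided p was 0.1, the smallest possible. Leaving out 1 tumour at a time gave between -0.76 and -0.48.

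MC1R lies just upstream of TUBB3, the gene of a neuronal beta-tubulin, and transcripts that run through both genes are known, so reads of the pair may not be fully separable. TUBB3 had 28.1, 17.3 and 15.8 FPKM in the anti-ENG tumours, against 18.1, 14.9 and 11.3 FPKM in the IgG tumours. Its groups overlapped, and its log2 fold change of 0.42 had the opposite sign to that of MC1R (limma adjusted p = 0.570).

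NGFR, the p75 neurotrophin receptor of neural crest stem cells and of immature Schwann cells, varied most of the 10 on the log2(FPKM + 1) scale, with an SD of 0.56 over the 6 tumours. It had 0.0474, 2.34 and 1.27 FPKM in the anti-ENG tumours, against 0.899, 0.558 and 0.599 FPKM in the IgG tumours. The anti-ENG group held both the lowest and the highest value, with a two-sided exact permutation p of 0.7. Of the 12586 genes tested, those nearest to NGFR in their pattern over the 6 tumours were CCR1, MANSC1 and MTRNR2L10. Their root mean square differences were 0.15, 0.18 and 0.20 in centred log2(FPKM + 1). That scale compresses the range of NGFR, whose highest value was 49.3 times its lowest, and a link of these genes to NGFR was not tested. CCR1, a chemokine receptor, had 3.57, 10.3 and 7.20 FPKM in the anti-ENG tumours, against 6.59, 5.90 and 6.12 FPKM in the IgG tumours.

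Of the structural proteins, NES encodes nestin, an intermediate filament of neural progenitors and immature Schwann cells that is also used as a marker of nerve sheath tumours. It had 23.2, 44.0 and 45.5 FPKM in the anti-ENG tumours, against 64.1, 56.8 and 47.6 FPKM in the IgG tumours. No anti-ENG value reached the IgG range, with anti-ENG 1 far below the others and anti-ENG 3 close to IgG control 3. Such a separation towards lower values was found in 6.75% of all genes tested. The means were 37.6 ± 12.5 FPKM under anti-ENG and 56.1 ± 8.26 FPKM under IgG (SD, n = 3 each). The log2 fold change was -0.62 (SE 0.26, limma adjusted p = 0.529), with an exact two-sided permutation p of 0.1. It was -0.31 without anti-ENG 1 (limma adjusted p = 0.831) and -0.21 without both anti-ENG 1 and IgG control 1.

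Nestin is also made by pericytes and other mesenchymal cells, so markers of other cell types were read beside it. Of 12 such markers 5 reached the minimum, 1 with a higher and 4 with a lower estimate under anti-ENG. Their median log2 fold change was -0.27. By limma 0 passed the adjusted threshold and 1 had an unadjusted p under 0.05, against 9.17% of all genes tested. PDGFRB, a receptor of pericytes and fibroblasts, had 22.2, 29.2 and 28.6 FPKM in the anti-ENG tumours, against 74.2, 52.8 and 35.2 FPKM in the IgG tumours. Its groups did not overlap, which held for 1 of the 5 markers tested (20%), against 17.3% of all genes tested. The log2 fold change of PDGFRB was -0.94 (SE 0.26, limma adjusted p = 0.529), or -0.56 without anti-ENG 1 and IgG control 1. COL3A1, a fibroblast collagen, ranged from 109 to 305 FPKM under anti-ENG and from 212 to 479 FPKM under IgG. The contractile gene ACTA2 ranged from 6.92 to 13.2 FPKM under anti-ENG and from 8.12 to 17.4 FPKM under IgG. The summed level of the 12 markers ran from 210 to 447 FPKM in the anti-ENG tumours and from 322 to 688 FPKM in the IgG tumours. This sum was mostly COL3A1, which gave 109 FPKM of the lowest sum (anti-ENG 1) and 479 FPKM of the highest (IgG control 1). CD68, a macrophage marker, had 58.4 to 115 FPKM over all tumours. The endothelial gene PECAM1 had 0.873 to 2.15 FPKM, the leukocyte gene PTPRC 0.184 to 1.13 FPKM, and the keratinocyte gene KRT14 was listed at 0 in 5 tumours and at 1.01 FPKM in anti-ENG 3. The table uses human gene symbols and the tumours came from 1 human cell line, so these levels can include RNA of the tumour cells themselves. Whether they came from host or tumour cells was not tested, nor was the part of other cell types in the NES difference. In bulk tumours, fewer cells of a type and less RNA per cell cannot be told apart.

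PMP22, a membrane protein of peripheral myelin that many other cell types also make, varied least between tumours, with its highest value 1.25 times its lowest, against 1.62 times for SOX9, the next. It had 43.9, 42.3 and 45.4 FPKM in the anti-ENG tumours, against 49.6, 39.7 and 40.5 FPKM in the IgG tumours. The anti-ENG values lay within the IgG range. The log2 fold change was 0.027 (95% interval -0.26 to 0.31, limma adjusted p = 0.944), and its sign turned under 3 other scalings, to between -0.092 and -0.045, while it was 0.13 without anti-ENG 1 and IgG control 1. NES was above PMP22 in 2 of 3 anti-ENG tumours and in 3 of 3 IgG tumours, with NES to PMP22 ratios of 0.528 to 1.04 under anti-ENG and 1.18 to 1.43 under IgG.

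GAP43 encodes a growth cone protein of neurons that Schwann cell precursors and non-myelinating Schwann cells also make. It had 0.996, 1.31 and 1.34 FPKM in the anti-ENG tumours, against 1.87, 1.06 and 2.84 FPKM in the IgG tumours. The groups overlapped through IgG control 2. For GAP43 the log2 fold change was -0.36 (SE 0.25, limma adjusted p = 0.612), and it was -0.14 without IgG control 3.

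PMEL encodes the protein of the fibrils on which melanin is laid down. It had 0.0429, 0.204 and 0.239 FPKM in the anti-ENG tumours, and in the IgG tumours it was listed at 0, 0.106 and 0.228 FPKM. The lowest value of either group was that of its tumour 1, and the groups overlapped, with a two-sided exact permutation p of 0.6. PMEL thus stayed under 0.5 FPKM in all 6 tumours in which MITF had 1.38 FPKM or more.

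**Figure D2:**
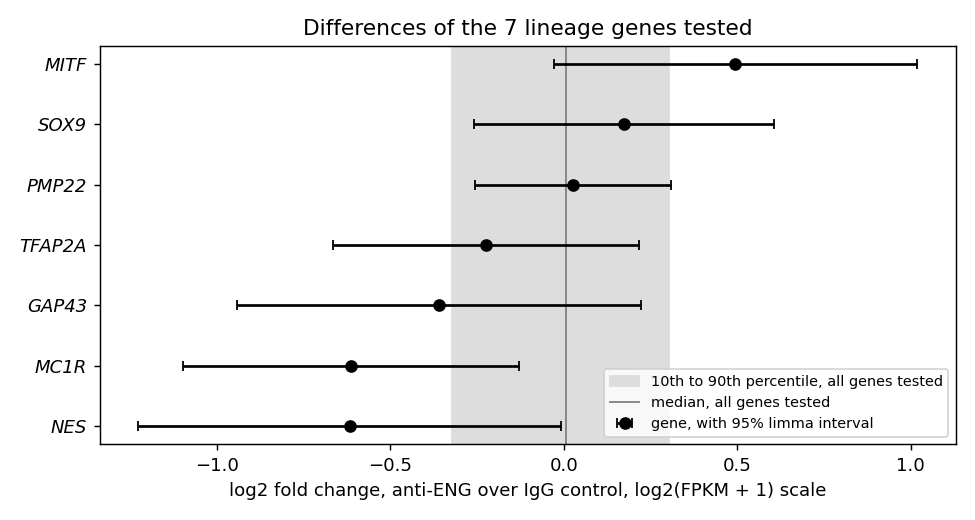
Log2 fold change, anti-ENG over IgG control on the log2(FPKM + 1) scale, of the 7 lineage genes tested, with 95% limma intervals; the grey band spans the 10th to the 90th percentile of all genes tested and the grey line is their median. MC1R (-0.61) and NES (-0.62) lie furthest to the left and MITF (0.49) furthest to the right.

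As a group, the 7 lineage genes tested showed no common direction. The estimates of MITF, SOX9 and PMP22 were higher under anti-ENG and those of the other 4 lower, with PMP22 changing sign under other scalings. Their median log2 fold change was -0.22, against 0.0065 for all genes tested, where the 10th and 90th percentiles were -0.32 and 0.30. This median is unstable: it was -0.063 without IgG control 2, -0.35 without IgG control 1, -0.015 over all 10 genes and 0.027 over the 3 that averaged 5 FPKM or more. The groups did not overlap in 2 of the 7, or 28.6%, against 17.3% of all genes tested. Both of these, NES and MC1R, were lower under anti-ENG, a pattern found in 6.75% of all genes tested.

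**Figure D3:**
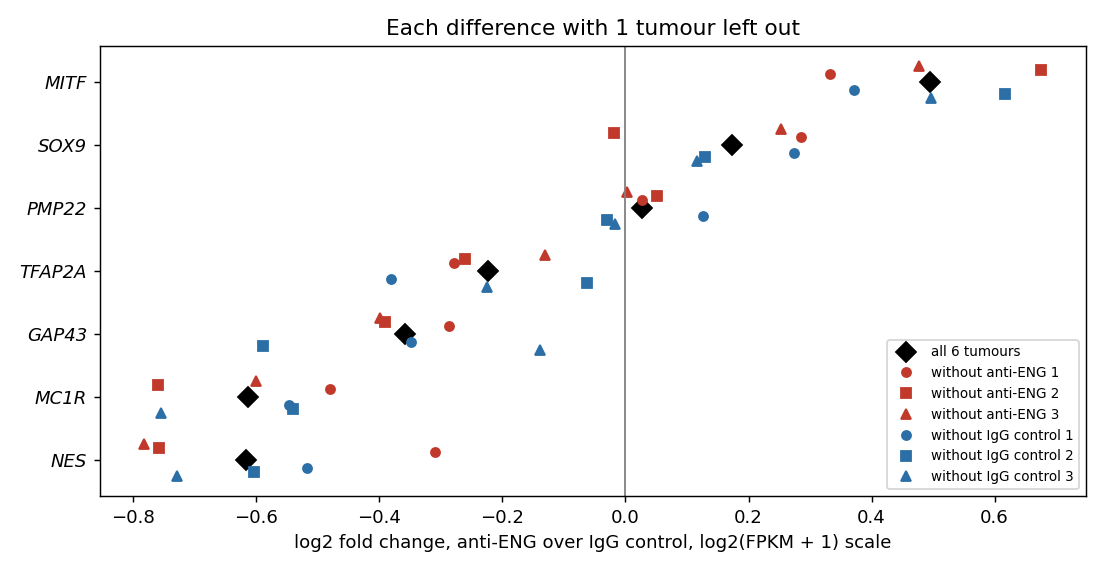
Log2 fold change, anti-ENG over IgG control on the log2(FPKM + 1) scale, of the 7 lineage genes with all 6 tumours (black) and with 1 tumour left out (red: an anti-ENG tumour left out; blue: an IgG control tumour left out). NES lies at -0.31 without anti-ENG 1, against -0.62 with all tumours, and SOX9 lies at -0.019 without anti-ENG 2, against 0.17.

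Further genes of these lineages were read from fixed lists to see what else the tumours kept or lacked. Of 20 Schwann cell genes, 4 were at 1 FPKM or more in every tumour, against 50% of all genes in the table. Another 11 were under 1 FPKM in every tumour. For scale, a mean of 0.952 FPKM, that of NGFR, stood at percentile 45.6 of all genes in the table. The defining genes of the lineage were low or listed at 0. S100B, the calcium-binding protein of the diagnostic stain, was listed at 0 in 4 tumours and had 0.0849 FPKM in anti-ENG 2 and 0.104 FPKM in IgG control 1. The Schwann cell cadherin CDH19 was listed at 0 in all 6. The neuregulin receptor gene ERBB3 did not exceed 0.326 FPKM. EGR2, the factor of myelination, had 0.690 to 0.828 FPKM under anti-ENG and 0.359 to 1.76 FPKM under IgG. None of these 4 defining genes of the labelled nerve sheath lineage exceeded 1.76 FPKM in any tumour.

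The most abundant genes of that list are shared with other cell types. CNP, an enzyme of myelinating cells, averaged 20.2 FPKM over the 6 tumours, the myelin basic protein gene MBP 7.23 FPKM, the progenitor factor SOX2 6.36 FPKM and the adhesion molecule gene NCAM1 5.71 FPKM. NCAM1 had 6.62, 4.98 and 10.8 FPKM in the anti-ENG tumours, against 4.49, 4.78 and 2.64 FPKM in the IgG tumours. All anti-ENG values of NCAM1 lay above the IgG values, with anti-ENG 2 and IgG control 2 close to each other. Its log2 fold change was 0.74 (SE 0.28, limma adjusted p = 0.529), and it was 0.47 without anti-ENG 3. SOX2 ranged from 3.67 to 7.82 FPKM under anti-ENG and from 2.50 to 10.0 FPKM under IgG, so its groups overlapped. Of the 6 genes of this list that were tested, 2 had higher and 4 lower estimates, the groups were apart in 1 (16.7%, against 17.3% of all genes tested), and 0 passed the adjusted threshold (limma). At an unadjusted p under 0.05 there was 1, against 9.17% over the whole table tested. The list had a median log2 fold change of -0.090.

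Of 18 other melanocyte genes, 7 were at 1 FPKM or more in every tumour, against 50% of all genes. Another 9 stayed under 1 FPKM in every tumour, where a mean of 0.952 FPKM stood at percentile 45.6 of all genes. The pigment enzymes were near 0. Tyrosinase (TYR) was listed at 0 in 5 tumours and had 0.0487 FPKM in IgG control 2, and DCT was listed at 0 in 5 and had 0.0469 FPKM in IgG control 3. TYRP1 had 0.144 to 0.225 FPKM under anti-ENG and 0.105 to 0.329 FPKM under IgG. The melanosomal antigen gene MLANA had 0.585, 0.948 and 0.612 FPKM in the anti-ENG tumours, against 0.776, 0.791 and 1.06 FPKM in the IgG tumours, and these values overlapped. KIT and TRPM1, named after their values were seen, were listed at 0 in all 6.

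The abundant members of that list are genes that other tissues also use. The adhesion molecule gene MCAM averaged 58.1 FPKM over the 6 tumours, the tumour antigen gene PRAME 50.0 FPKM, the melanosome transport gene RAB27A 27.0 FPKM and the cell cycle kinase gene CDK2, which has a promoter under MITF control in melanocytes, 22.0 FPKM. GPNMB, a glycoprotein of melanosomes and lysosomes, had 14.9, 7.15 and 12.4 FPKM in the anti-ENG tumours, against 19.7, 24.9 and 14.8 FPKM in the IgG tumours. Anti-ENG 1 and IgG control 3 differed little and put the groups in overlap, and the log2 fold change was -0.76 (SE 0.28, limma adjusted p = 0.529), or -0.48 without anti-ENG 2. Of the 8 genes tested, 1 had a higher and 7 lower estimates, and 0 passed the adjusted threshold (limma). At an unadjusted limma p under 0.05 there was 1, GPNMB, against 9.17% of all genes tested. The median log2 fold change of the 8 genes was -0.23. Their groups were apart in 1 (12.5%, against 17.3% of all genes tested). The gene apart was RAB27A, at 25.8 to 26.0 FPKM under anti-ENG and 26.3 to 30.3 FPKM under IgG.

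**Figure D4:**
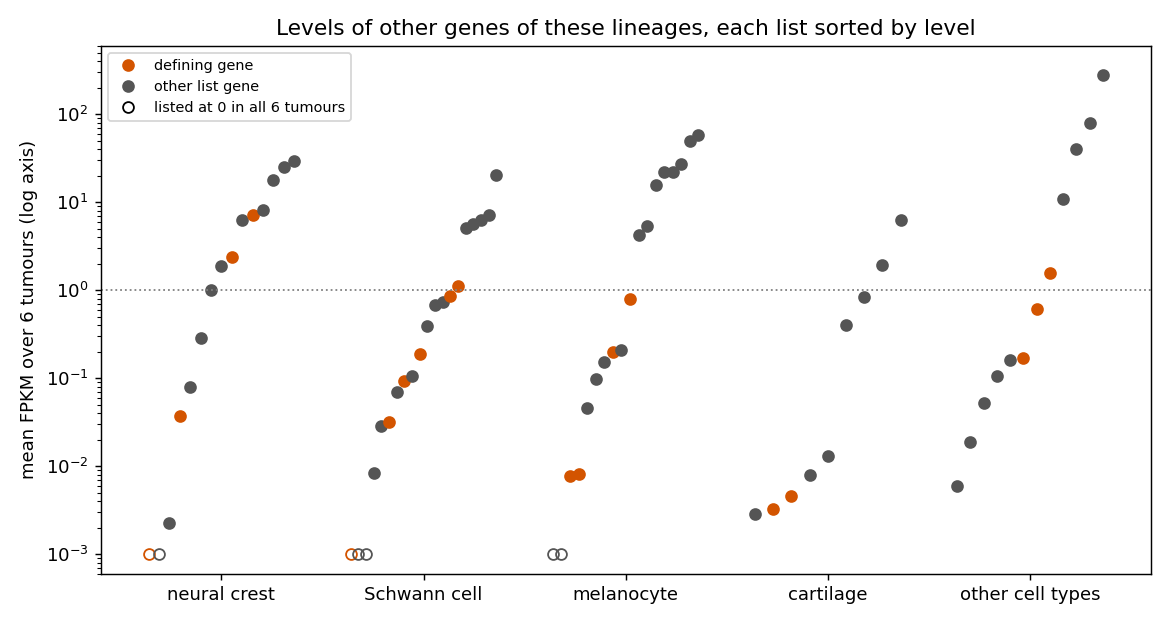
Mean FPKM over the 6 tumours (log axis) of the genes of 5 lists, each sorted by level; orange points are genes taken as defining and open points, placed at the foot of the axis, are genes listed at 0 in all 6 tumours. The defining Schwann cell and melanocyte genes lie near or below 1 FPKM, and of the 4 defining neural crest genes PAX3 and EDNRB lie above it and FOXD3 and TFAP2B below.

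Of the 15 genes of the neural crest list, 8 were at 1 FPKM or more in every tumour, as were 50% of all genes in the table. Another 6 were under 1 FPKM in every tumour, where a mean of 0.952 FPKM stood at percentile 45.6 of all genes. PAX3, a factor of the early crest and of melanocyte precursors, had 6.39, 6.16 and 7.28 FPKM in the anti-ENG tumours, against 8.88, 6.88 and 6.98 FPKM in the IgG tumours. EDNRB, the endothelin receptor of migrating crest cells, had 1.55 to 3.53 FPKM under anti-ENG and 1.92 to 2.65 FPKM under IgG. FOXD3, a factor of the early crest, was listed at 0 in 3 tumours and did not exceed 0.0972 FPKM. The factor of crest migration SNAI2 averaged 29.6 FPKM, ETS1 24.9 FPKM and the homeobox gene MSX1 8.11 FPKM, and the groups overlapped in each. Of the 9 genes tested, 2 had higher and 7 lower estimates, and 0 passed the adjusted threshold (limma). The groups were apart in 1 (ZIC1, named after its values were seen), or 11.1% against 17.3% of all genes tested. At an unadjusted limma p under 0.05 there were 0, against 9.17% of all genes tested. The median log2 fold change of the 9 genes was -0.14.

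SOX9 also drives the cartilage programme, and genes of that programme were read beside it. Its targets COL2A1 and ACAN, the main collagen and proteoglycan of cartilage, were listed at 0 in 5 tumours each, with 0.0197 FPKM in anti-ENG 2 for COL2A1 and 0.0277 FPKM in IgG control 1 for ACAN. Of 9 cartilage genes, 2 were at 1 FPKM or more in every tumour, against 50% of all genes in the table. These were RUNX2, at 6.34 FPKM, and COL9A2, at 1.95 FPKM on average. Another 6 genes were under 1 FPKM in every tumour, where a mean of 0.952 FPKM stood at percentile 45.6 of all genes. MATN3 had 0.502 to 0.602 FPKM under anti-ENG and 0.793 to 1.47 FPKM under IgG, and COL11A2 did not exceed 0.609 FPKM. Both genes tested had lower estimates, with a median log2 fold change of -0.13, and 0 passed the adjusted threshold (limma). The groups were apart in 1 of them, RUNX2, against 17.3% of all genes tested. At an unadjusted limma p under 0.05 there were 0, against 9.17% of all genes tested.

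**Figure D5:**
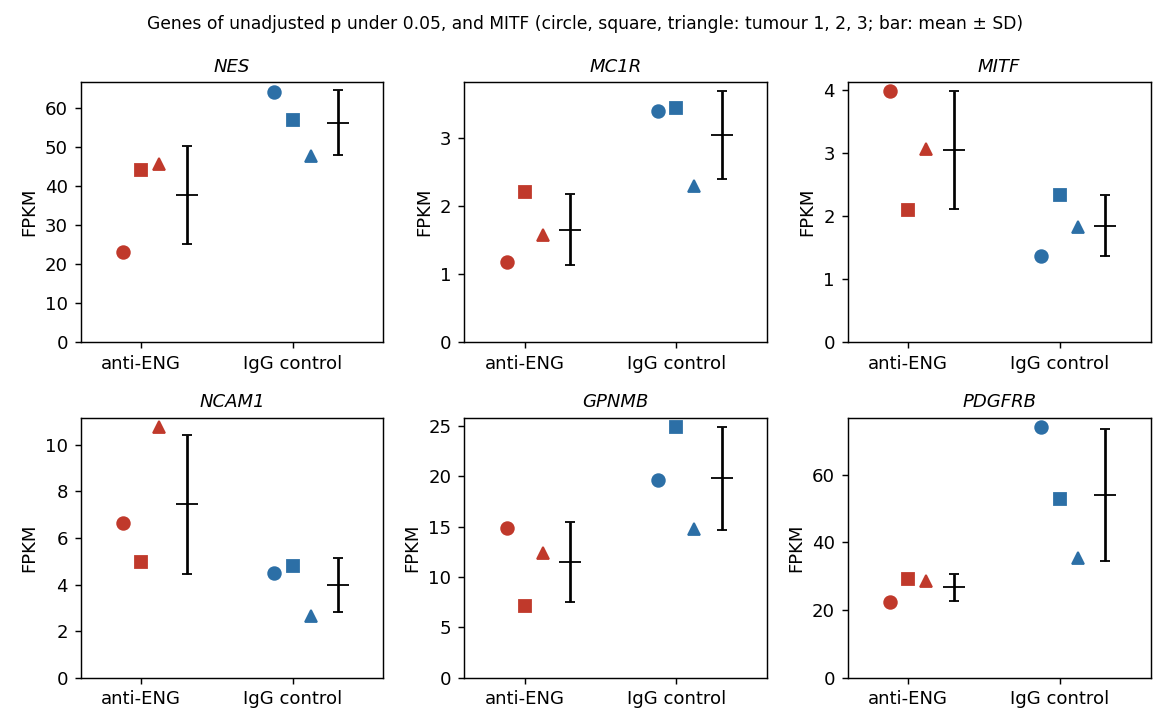
FPKM in each tumour of MITF and of the 5 described genes with an unadjusted limma p under 0.05, with anti-ENG tumours left of IgG control tumours and the mean ± SD of each group (n = 3) beside the points. NES, MC1R and PDGFRB are lower and NCAM1 is higher in all 3 anti-ENG tumours than in any IgG tumour, while the groups of GPNMB and MITF overlap. Over all genes tested, the groups do not overlap in 17.3%.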

How the data were processed

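RNA was sequenced from 6 xenograft tumours, 3 per arm, grouped by sample title. The deposited FPKM values were made by the authors, and the submitters' processing notes name the build GRCh37 (hg19) and the tools Cuffnorm, Cufflinks 2.2.1, TopHat2 2.0.10, Bowtie 1.0.0, FastQC 0.10.1 and SAMtools 0.1.1.9. Their scaling, strand use and treatment of mouse reads are not given in the sources used here. Per the labels' protocols, a pair of kits and a pair of instruments are named without their samples, and polyadenylated RNA was taken.

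The values were compared here on log2(FPKM + 1) with limma 3.58.1 (R 4.3.3; variance trend, no covariates) in genes averaging 1 FPKM or more, after the step was tested on simulated data. FPKM are not counts, so no count test was run, and depth is known only relative to IgG control 1. No pair of tumours shared a value above 0 in any gene (0 genes).

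The 10 genes and the gene lists were chosen with earlier results of these data known. Besides the 10, each list's 4 most abundant genes, its defining genes and any gene of unadjusted p under 0.05 are named, along with the 3 genes nearest to the most variable member. Family members SOX8 and TFE3 and the neighbour TUBB3 were added later. Alternatives covered pseudocount, minimum level, scaling, variance model, weights, blocks, code numbers and leaving out tumours. Some genes that this rule picks are not reported here. Human sequences were not used here.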

Additional observations from a re-analysis of the deposited data

How the results depend on the processing

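Under all 19 alternatives 0 genes passed an adjusted p of 0.05 by limma, the lineage genes that each one tested included (7 in most, 3 at a minimum of 5 FPKM and all 10 with no minimum level). MC1R, NES, GAP43 and TFAP2A stayed lower and MITF higher under anti-ENG in each alternative that tested them, with ranges of -0.86 to -0.41 for MC1R, -0.78 to -0.21 for NES and 0.21 to 0.68 for MITF. PMP22 turned to -0.092 with each tumour rescaled to the same sum of FPKM, -0.045 with quantile normalization, -0.060 with cyclic loess normalization and -0.011 with tumours of 1 code number averaged, and ran from -0.030 to 0.13 with 1 tumour left out. SOX9 ran from -0.019 to 0.29 with 1 tumour left out. The median of the lineage genes tested was -0.015 with no minimum level (10 genes), 0.027 at a minimum of 5 FPKM (3 genes) and -0.32 with the same sum of FPKM, and it ran from -0.35 to -0.063 with 1 tumour left out. The same-sum scaling moved the median of all genes to -0.10, so directions are relative to the scaling used, and at an unadjusted p under 0.05 it gave 168 genes higher and 1088 lower, against 700 and 454 as deposited. With the replicate numbers as a block 0 genes passed (smallest adjusted p = 0.641). Deviations of same-numbered tumours correlated at -0.329, 0.194 and 0.0371, and 1 of 3 anti-ENG tumours correlated best with its own number. With 3 tumours per group this cannot decide whether the numbers pair the tumours. The near-zero levels of SOX10 and PMEL are limited by depth.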
